A study of Camelus dromedarius with 30 samples.

Results

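The genes described here code for the ribosomal proteins of the cytosol (names starting with RPL and RPS) and of the mitochondrion (MRPL and MRPS), and for the initiation and elongation factors of translation with the regulators and enzymes that carry their names (EIF and EEF). They are the genes of these name families that the study listed as changed at the RNA or protein level in its supplementary lists, without the RPS6K kinases, and they were found in the count table by their gene identifiers. There were 108 such genes among the 22444 of the table. Of these, 30 were cytosolic ribosomal genes (20 RPL and 10 RPS), 48 were mitochondrial ribosomal genes (29 MRPL and 19 MRPS) and 30 were factors (26 EIF and 4 EEF). The lists were made from the same camels. In the parts of the lists that were held, the RNA list, which rests on these very libraries, named 10 of the genes. The other 98 were named by the protein lists alone.

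Proteins of the cytosol are made on the cytosolic ribosome, whose proteins are encoded in the nucleus and are made in near equal numbers. Mitochondria have a separate ribosome that makes a small set of respiratory chain subunits from mitochondrial mRNAs, and all of its proteins are encoded in the nucleus as well. Initiation factors bring mRNA, initiator tRNA and ribosome together, and elongation factors deliver tRNAs and move the ribosome along the mRNA. Kidney tubules, the proximal tubule and thick ascending limb above all, are rich in mitochondria.

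Kidneys of 15 adult male dromedaries aged 4 to 5 years (Camelus dromedarius) were divided into cortex and medulla, and poly(A) RNA sequencing of both gave 30 libraries in 6 groups of 5. Control camels drank freely, dehydrated camels went without water for 20 days, and rehydrated camels went without water for 20 days and then drank freely for 3 days. The deposited values were counts of read pairs per gene, and the libraries held 12634346 to 20005136 of them. They were scaled to a common library size (CPM) with TMM factors, which correct for the make-up of each library. A gene was called changed at a Benjamini-Hochberg adjusted p under 0.05 over the 15376 genes that passed the filter on low counts (edgeR's quasi-likelihood test). All 108 genes passed this filter. Few tubule markers carried a symbol, and not all of them went with the tissue labels. SLC22A8, an anion transporter of the proximal tubule, stood at 157 to 1404 CPM in the cortex libraries and 0.768 to 61.9 CPM in the medulla libraries. UMOD and EGF, markers of the thick ascending limb, summed to 3549 to 8715 CPM in the cortex and 13280.3 to 23832 CPM in the medulla. PVALB, a marker of the distal convoluted tubule, was low and had no steady direction. It stood at 0.742 to 1.18 CPM in the control cortex and 1.93 to 3.17 CPM in the control medulla. In dehydrated camels it stood at 3.18 to 5.82 CPM in the cortex and 0.811 to 2.25 CPM in the medulla.

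The cytosolic ribosomal genes were the most abundant. Per length of their exons (RPKM, the TMM-scaled CPM for each kilobase of exon), the mean level over 30 libraries had a median of 1179 RPKM for the RPL genes and 1185 RPKM for the RPS genes. The median was 61.4 RPKM for MRPL, 53.5 RPKM for MRPS, 36.3 RPKM for EIF and 17.1 RPKM for EEF genes, against 7.17 RPKM over all tested genes. RPS12 was among the low cytosolic ribosomal genes at 569 RPKM, and RPS6 (2776 RPKM) and RPL27A (3050 RPKM) were the highest. Every cytosolic ribosomal gene lay above the highest mitochondrial one. The mitochondrial levels ran from 17.0 RPKM (MRPL57) and 20.8 RPKM (MRPL53) to 214 RPKM (MRPL27) and 223 RPKM (MRPL23). Reads that mapped to several places were not counted, and ribosomal protein genes have many near-identical processed copies, so these levels are uncertain for the RPL and RPS genes. EEF1A2, a form of the elongation factor that is typical of muscle and neurons, was the lowest of all 108 at 0.330 RPKM.

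**Figure D1:**
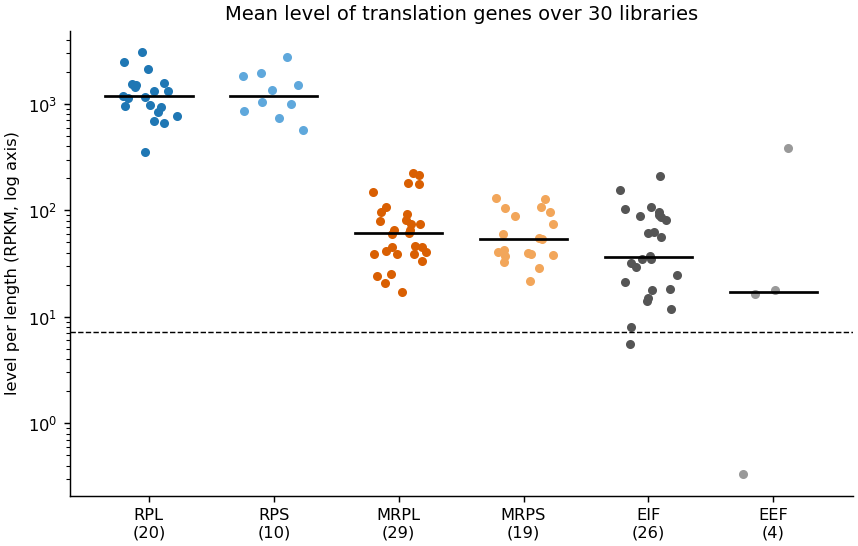
Mean level per exon length of each translation gene over the 30 libraries (RPKM, log axis), by name family with the number of genes; each point is a gene, the bars are family medians and the dashed line is the median of all tested genes (7.17 RPKM). All RPL and RPS genes lie above every mitochondrial ribosomal gene, and the lowest point is EEF1A2.

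Within a group, the cytosolic ribosomal genes moved as a block from library to library. In 22 of the 30 libraries all 30 of them lay on the same side of their group means. The correlation of their deviations from the group means (log2 CPM, 30 libraries) had a median of 0.94 over 435 gene pairs. It was 0.58 among the mitochondrial ribosomal genes (1128 pairs), 0.73 between the cytosolic and the mitochondrial ribosomal genes (1440 pairs) and 0.08 among the factors (435 pairs). These correlations share libraries and scaling and are given as a description. The mean deviation of the cytosolic ribosomal genes was highest in rehydrated medulla 3 (0.86 on the log2 scale) and control medulla 3 (0.61), and lowest in rehydrated medulla 2 (-0.50) and 5 (-0.45). The mitochondrial mean deviation had the same sign in 29 of the 30 libraries.

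The length of genes moved with this block. The cytosolic ribosomal genes are short, with a median exon length of 809 bases, against 1280.5 for the mitochondrial ribosomal genes, 2124.5 for the factors and 2400.5 for the 9170 genes whose mean reached 10 CPM. Across those 9170 genes, the deviation of a library from its group mean was correlated with exon length (Spearman's rho from -0.39 to 0.47 by library). In all 13 libraries in which the cytosolic ribosomal genes lay above their group mean this rho was negative, and in 16 of the 17 in which they lay below it rho was positive. In rehydrated medulla 3 rho was -0.37. The part of this shift in the differences between groups was not tested.

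**Figure D2:**
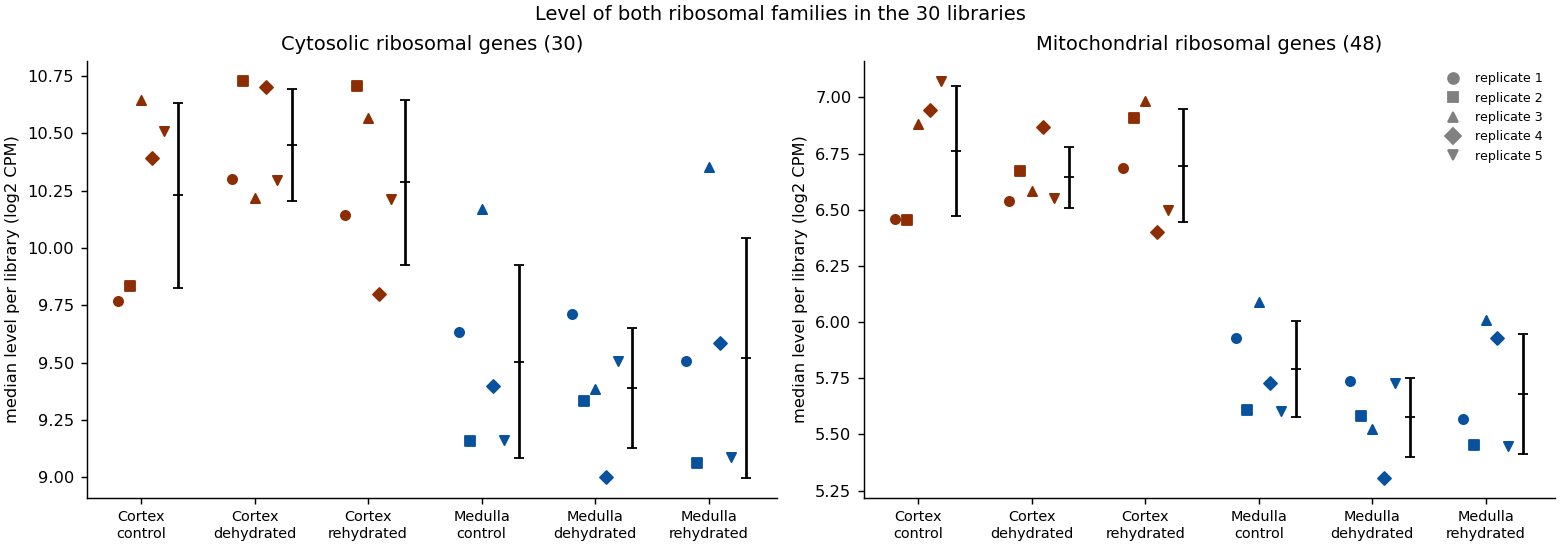
Median level of the 30 cytosolic (left) and 48 mitochondrial (right) ribosomal genes in each of the 30 libraries (log2 CPM; the axes do not start at 0), by tissue and condition; symbols mark the replicates, and the bars are the mean and SD of 5 libraries. The mitochondrial medians of the cortex (6.40 to 7.07) all lie above those of the medulla (5.31 to 6.09), while the cytosolic medians of the tissues overlap in the control and rehydrated camels.

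The cortex and the medulla were compared within each condition. Both ribosomal families were lower in the medulla. In control camels 88 of the 108 genes differed between the tissues (81.5%), 84 lower and 4 higher in the medulla, where 60.9% of all tested genes (28.6% lower and 32.2% higher) and 66.2% of those with at least 10 CPM were called. The cytosolic ribosomal genes were lower for 27 of 30, with a median log2 fold change of -0.72, and the mitochondrial ribosomal genes for 42 of 48, with a median of -1.02. The median of all tested genes was 0.10. In dehydrated camels 95 of 108 were called, against 65.4% of all tested genes (31% lower and 34.4% higher), with 30 of 30 cytosolic genes lower (median -1.08) and 43 of 48 mitochondrial genes lower and 1 higher (median -1.03). In rehydrated camels 89 of 108 were called, against 61.1% of all tested genes (28.1% lower and 33% higher), with 27 of 30 (median -0.71) and 43 of 48 (median -0.95) lower. Over the 3 conditions, 77 genes were called lower each time and 3 higher each time.

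Among the cytosolic ribosomal genes, the largest difference in control camels was that of RPL36A-HNRNPH2, whose name joins a large subunit gene with its neighbour (chromosome X, 78956254 to 78959084; coordinates are those of the CamDro2 assembly). It stood at 588, 604, 1387, 1083 and 1277 CPM in the control cortex and 472, 292, 668, 338 and 299 CPM in the control medulla (log2 fold change -1.26, SE 0.30, adjusted p = 9.34e-04). These groups overlapped through control medulla 3. RPL22, a large subunit protein that also binds other RNAs (chromosome 13, 4272469 to 4278946), stood at 841, 919, 1625, 1129.8 and 1439 CPM in the control cortex and 543, 364, 791, 441 and 407 CPM in the control medulla, with no overlap (log2 fold change -1.23, SE 0.26, adjusted p = 2.26e-04). RPL7A (chromosome 4, 2757635 to 2760910) was at the other end of the family in control camels, at 546, 518, 666, 675 and 728 CPM in the cortex and 661, 557, 843, 543 and 539 CPM in the medulla (log2 fold change 0.00, SE 0.15, adjusted p = 0.981). RPL10A was next to it at -0.34 (SE 0.21) and was not called either. RPL7A overlaps other genes on its strand, and reads shared between genes were not counted.

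The small subunit genes spanned a narrower range. All 10 were lower in the medulla of control camels, with log2 fold changes of -0.91 and -0.89 for RPS16 and RPS4X at one end and -0.57 for RPS18 towards the other, and their groups overlapped for every one. RPS18 lost its call in 6 of the 10 fits that each lacked a library, with an adjusted p of up to 0.0845 (edgeR, without control cortex 3). RPS6, a target of growth signalling through the S6 kinases and the most abundant RPS gene per length (chromosome 4, 60586868 to 60591070), stood at 2290.2, 2202, 3632, 3327 and 3366 CPM in the control cortex and 2029, 1427, 2724, 1584 and 1468 CPM in the control medulla (log2 fold change -0.68, SE 0.23, adjusted p = 0.0114). In dehydrated camels the same gene stood at 3087, 4028, 2946, 3973 and 3135 CPM in the cortex and 1863, 1501, 1781, 1225 and 1859.7 CPM in the medulla (log2 fold change -1.06, SE 0.23, adjusted p = 2.36e-04). There the groups did not overlap, as for all 30 cytosolic ribosomal genes in dehydrated camels. Over all tested genes, 54.8% did not overlap between the tissues in dehydrated camels and 42.9% in control camels, where 3 of the 30 did not. In rehydrated camels it was 30.3% of all tested genes and 0 of the 30. The RNA integrity numbers given by the paper were all lower in the dehydrated cortex than in the dehydrated medulla. They overlapped between the tissues in control and in rehydrated camels. Tissue and RNA integrity thus cannot be told apart within the dehydrated camels. Other settings, a fit with this number as covariate among them, called 75 to 99 genes between the tissues there.

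Of the 48 mitochondrial ribosomal genes, 38 did not overlap between the tissues in control camels, where 42.9% of all tested genes did not. MRPL27, a large subunit protein (chromosome 16, 32612372 to 32617589), stood at 250.3, 221, 441, 398 and 453 CPM in the control cortex and 111, 68.1, 139, 79.2 and 78.6 CPM in the control medulla (log2 fold change -1.89, SE 0.28, adjusted p = 3.38e-06), which is 3.71-fold lower. Of the genes named MRPS, grouped here by name alone, MRPS30 (chromosome 3, 87737244 to 87743890) stood at 48.7, 53.3, 42.5, 51.8 and 49.7 CPM in the control cortex and 20.8, 16.0, 23.4, 18.1 and 15.0 CPM in the control medulla (log2 fold change -1.40, SE 0.15, adjusted p = 2.72e-08). MRPS9 was close to it at -1.38 (SE 0.21). The genes at the other end were not called in control camels. MRPL49 stood at 24.9, 22.3, 26.2, 23.0 and 23.8 CPM in the control cortex and 28.5, 29.4, 28.7, 26.2 and 25.4 CPM in the control medulla (log2 fold change 0.20, SE 0.11, adjusted p = 0.103), and MRPL53, MRPS18A and MRPS18B had log2 fold changes of 0.26, -0.30 and -0.15. MRPL53 was the mitochondrial gene called higher in the dehydrated medulla (log2 fold change 0.69, SE 0.28, adjusted p = 0.0345). MRPL57 had the lowest fitted value (log2 fold change -2.66, SE 0.84, adjusted p = 0.00813), and without control cortex 3 it was -1.03 (adjusted p = 0.297). MRPL53 lost its call in 7 of the 10 fits that each lacked a library (adjusted p up to 0.0769, edgeR).

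The factors were split. In control camels 15 of 30 were lower and 4 higher in the medulla, with a median log2 fold change of -0.36. Those higher were EIF4G3 and EIF4G2, scaffold and scaffold-like proteins of the eIF4G family, EIF4B, which aids the helicase eIF4A, and EIF3A, the largest subunit of eIF3. EIF4G3 (chromosome 13, 14797461 to 15054507) stood at 59.7, 67.4, 36.6, 53.5 and 41.6 CPM in the control cortex and 102, 137, 94.7, 117 and 123 CPM in the control medulla (log2 fold change 1.15, SE 0.21, adjusted p = 5.08e-05). EIF3A, EIF4B and EIF4G3 were called higher in the medulla in each of the 3 conditions. Of the cap-binding branch, EIF4E2, a relative of eIF4E that represses translation, was lower in the medulla at 113, 83.7, 125, 115 and 115 CPM against 209.8, 205, 260.3, 261 and 277 CPM (log2 fold change -1.14, SE 0.13, adjusted p = 6.51e-08), and EIF4EBP1, the inhibitor of eIF4E, was lower by 2.28-fold (log2 fold change -1.19, SE 0.37, adjusted p = 0.00699), which was -0.66 (adjusted p = 0.0923) without control cortex 3. All 4 EEF genes had log2 fold changes below 0 in control camels, and EEF1G, a subunit of the exchange factor of eEF1A, was the one not called (log2 fold change -0.17, SE 0.16, adjusted p = 0.38). EEF1A2 and the methyltransferases of eEF1A, EEF1AKMT1 and EEF1AKMT2, were lower with values of -1.06, -0.50 and -1.09, of which EEF1AKMT1 turned to 0.026 with library totals alone and EEF1A2 was at -0.77 (adjusted p = 0.116, edgeR) without control medulla 2.

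**Figure D3:**
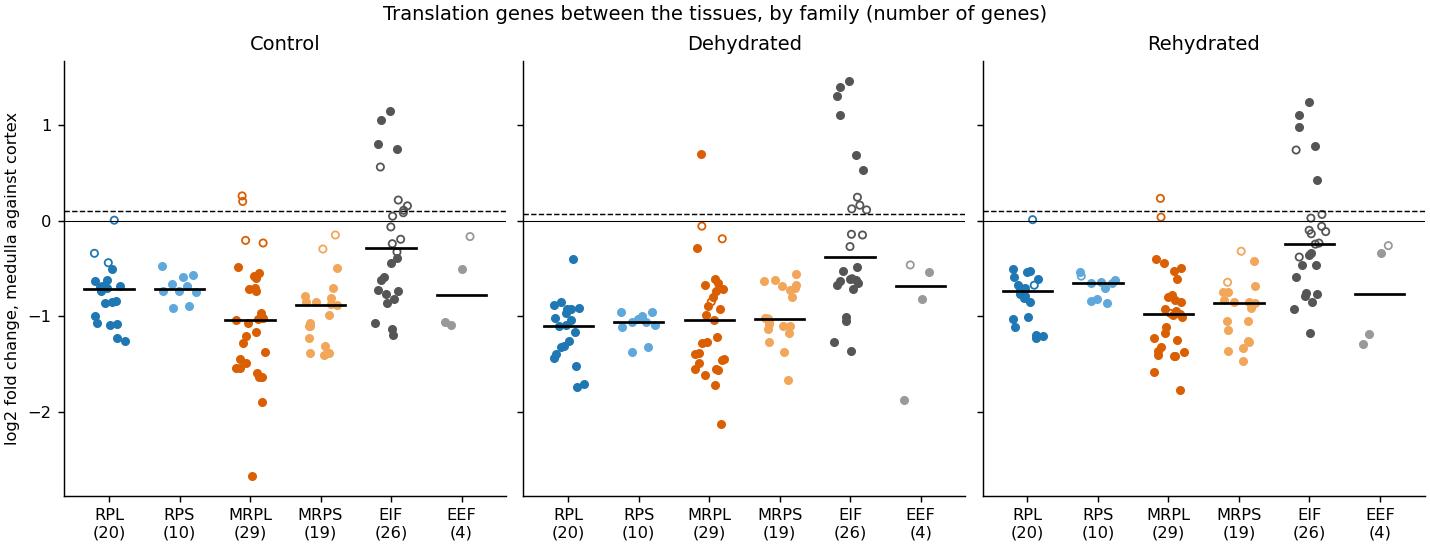
Log2 fold change of each translation gene in the medulla against the cortex in control, dehydrated and rehydrated camels, by name family with the number of genes; filled points passed an adjusted p of 0.05, open points did not, bars are family medians and the dashed line is the median of all tested genes (0.10, 0.07 and 0.10). The ribosomal families lie below the line with few exceptions, and the EIF genes spread to both sides.

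These differences are relative to the scaling. The TMM factors were 0.740 to 0.900 in the cortex and 1.05 to 1.31 in the medulla, and with library totals alone the median of all tested genes moved up by 0.52 to 0.55 between the tissues. The medians of the cytosolic ribosomal genes were then -0.19, -0.52 and -0.18 in control, dehydrated and rehydrated camels, with 4, 25 and 6 of 30 called lower, and those of the factors turned to 0.17, 0.05 and 0.23. The mitochondrial medians were -0.49, -0.48 and -0.41, with 32, 28 and 32 of 48 called lower. Relative to the median of all tested genes, the cytosolic median in control camels was -0.82 with TMM factors and -0.81 with library totals, and the mitochondrial median was -1.12 and -1.11. A share of all counts is likewise a scaling by library totals and depends on the make-up of each library. By this share, cytosolic ribosomal genes took 3.21% ± 0.574 (SD, n = 5) in the control cortex and 2.80% ± 0.643 in the control medulla. Mitochondrial ribosomal genes took 0.465% ± 0.0496 and 0.337% ± 0.0269, with no overlap between the tissues, and the factors 0.387% ± 0.0221 and 0.494% ± 0.0213.

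The tissues were also compared within single camels, on the TMM scale. In control camels, 27 to 30 of the 30 cytosolic genes and 43 to 46 of the 48 mitochondrial genes were lower in the medulla than in the cortex of the same camel, and in dehydrated camels 30 of 30 and 46 or 47 of 48 were. The median difference of the cytosolic genes ranged from -0.16 to -1.25 (log2 CPM) over the 5 control camels and from -0.62 to -1.73 over the 5 dehydrated camels. As a share of all counts, the mitochondrial ribosomal genes were lower in the medulla in 5 of 5 control and 5 of 5 dehydrated camels, and the cytosolic ribosomal genes in 4 of 5 and 5 of 5. Control camel 1 had the opposite direction, with 2.65% of counts in the cortex and 2.98% in the medulla. Markers of cell types moved between the tissues too. The summed markers of the thick ascending limb, endothelium (CDH5 and PECAM1) and stroma (COL1A1, COL3A1 and PDGFRB) were higher in the control medulla, at 17993 to 22185 against 3633 to 5467 CPM, 415 to 444 against 196 to 231 CPM, and 169 to 317 against 64.6 to 126 CPM. Of the 32 nuclear genes of the respiratory chain and its assembly with a symbol, 31 were lower in the control medulla (median -0.97). Over all tested genes the median was 0.10 and 28.6% were called lower. These 32 carried a symbol only because the study's lists of changed RNAs or proteins named them. In bulk tissue, fewer cells of a type and less RNA per cell cannot be told apart.

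Dehydrated camels were compared with controls within each tissue. Of the 108 genes, edgeR called 3 in the cortex and 0 in the medulla, where 2.45% and 1.68% of all tested genes were called, and the 3 belong to the RNA list. The 98 genes outside that list are those that the held part of the study's RNA list, made from these same libraries, did not name. Few or no calls among them were thus set by the choice, and nothing is read from their count against all tested genes. It was 0 in both tissues by edgeR, DESeq2 and limma-voom, with 3 in the cortex and 8 in the medulla at an unadjusted p under 0.05. Their lowest adjusted p was 0.232 in the cortex (MRPL49) and 0.164 in the medulla (MRPL2). In the cortex the cytosolic ribosomal genes had a median log2 fold change of 0.21, with 29 of 30 above 0, and the mitochondrial ribosomal genes a median of -0.14, with 37 of 48 below 0. In the medulla both medians were below 0, at -0.19 with 30 of 30 cytosolic genes below 0 and -0.18 with 41 of 48 mitochondrial genes below 0. The median of all tested genes was 0.00 in the cortex and 0.01 in the medulla.

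Since the cytosolic genes moved as a block between libraries, these shared signs weigh as few independent values. RPS6 shows the spread. It stood at 3087, 4028, 2946, 3973 and 3135 CPM in the dehydrated cortex, overlapping the control cortex, with a log2 fold change of 0.21 (SE 0.23). The median of the cytosolic genes ranged from 0.10 (without control cortex 2) to 0.31 (without control cortex 3) over fits that each lacked a library. In the medulla it ranged from -0.26 to 0.01, and it was above 0 only without control medulla 3. Over the 30 cytosolic genes, the widest limits of the 95% intervals reached from -0.58 to 0.97 (cortex) and from -0.99 to 0.47 (medulla). These limits can belong to different genes and are not adjusted for the number of genes tested. Changes within the interval of a gene remain possible for it.

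**Figure D4:**
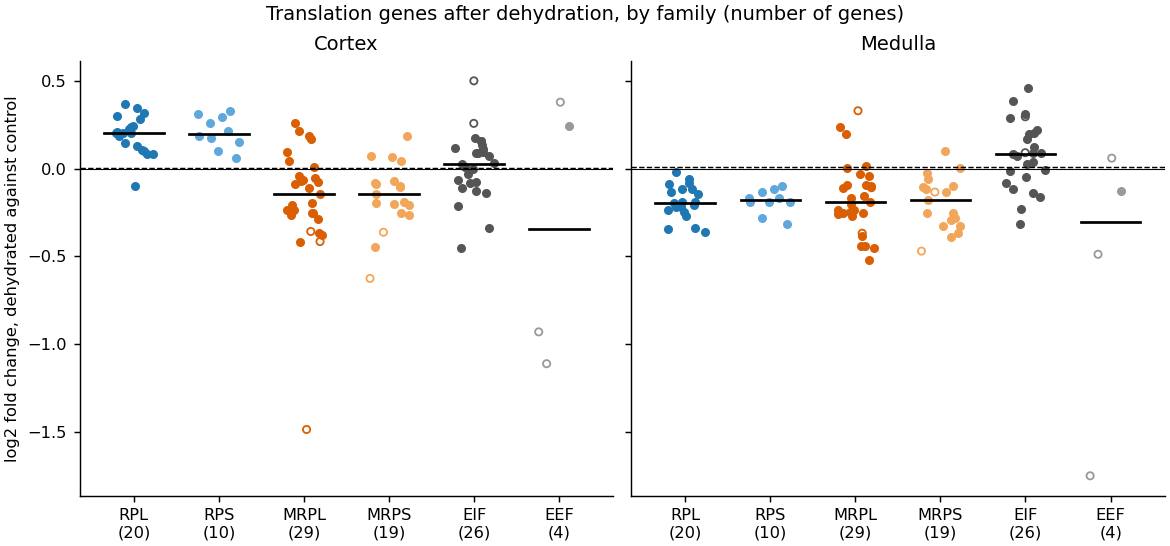
Log2 fold change of each translation gene in dehydrated against control camels, in the cortex (left) and medulla (right), by name family with the number of genes; filled points are genes named by the protein lists alone, open points the 10 genes of the RNA list, bars are family medians and the dashed line is the median of all tested genes. In the cortex the RPL and RPS genes lie above 0 but for 1, and most MRPL and MRPS genes lie below 0, while in the medulla all 4 family medians lie below 0.

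The relation of the ribosomal families was read within each library as the summed counts of the 48 mitochondrial genes in percent of those of the 30 cytosolic genes, a ratio that no scaling factor changes. It was 15.5, 16.1, 13.4, 14.3 and 14.0% in the control cortex and 11.6, 10.4, 11.9, 11.3 and 11.6% in the dehydrated cortex. Every dehydrated library was below every control library (14.7% ± 1.11 against 11.4% ± 0.569, SD, n = 5). In the rehydrated cortex it was 13.8, 11.95, 13.8, 14.6 and 12.7%, overlapping the controls, and its lowest value of 11.95% was barely above the highest dehydrated value of 11.92%. Without the 10 genes of the RNA list, 5 of which are mitochondrial ribosomal genes, the control cortex ran from 11.9% to 14.2% and the dehydrated cortex from 9.50% to 10.7%, again with no overlap, while the rehydrated cortex (10.7% to 12.7%) started just below the highest dehydrated value. As a ratio over the chosen genes it carries no test.

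Cell type markers carried a symbol only where the study's lists of changed RNAs or proteins named them. Their differences between conditions can thus be set by the choice, and the values are given as a description. In the dehydrated cortex SLC22A8, 1 of 10 proximal tubule markers with a symbol, was at 157 to 490 CPM, below the 665 to 1404 CPM of controls, the markers of the thick ascending limb (2 of 5) summed to 5091 to 8715 CPM against 3633 to 5467 CPM, and the endothelial markers (2 of 5) summed to 318 to 390 CPM against 196 to 231 CPM. Markers of intercalated cells and podocytes had no symbol. The part of cell make-up in the ratio of the ribosomal families was not tested.

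In the medulla the ratio did not separate the conditions. It was 12.0, 14.0, 9.64, 12.6 and 13.3% in the control medulla, 10.5, 12.0, 11.3, 12.7 and 12.1% in the dehydrated medulla and 10.9, 13.5, 8.10, 11.7 and 13.4% in the rehydrated medulla. The lowest values were those of control medulla 3 and rehydrated medulla 3, the libraries in which the cytosolic genes were highest.

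**Figure D5:**
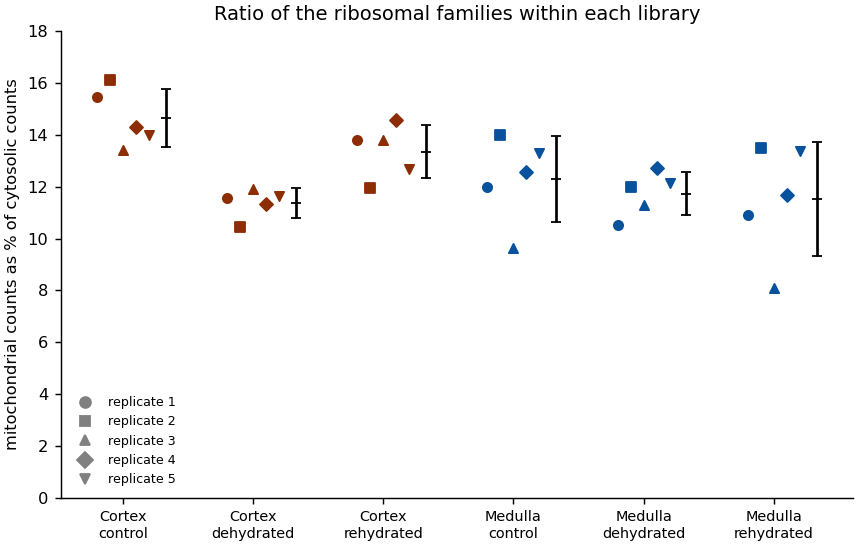
Summed counts of the mitochondrial ribosomal genes in percent of those of the cytosolic ribosomal genes in each library, by tissue and condition; symbols mark the replicates, and the bars are the mean and SD of 5 libraries. In the cortex the dehydrated libraries (10.4% to 11.9%) lie below all control libraries (13.4% to 16.1%), and in the medulla the groups overlap.

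Rehydrated camels were compared with dehydrated and with control camels. Against dehydrated camels, edgeR called 3 of the 108 genes in the cortex, where 2.32% of all tested genes were called, and 1 in the medulla, where 3.67% were, all of them in the RNA list. The 0 calls among the 98 other genes (4 and 8 at an unadjusted p under 0.05) were again set by the choice. Of these 98, DESeq2 called EIF1AX, a factor of start site scanning, in the cortex, and MRPL45 and MRPS12 in the medulla. EIF1AX stood at 9.08, 14.0, 11.5, 10.5 and 9.82 CPM in the dehydrated and 20.8, 13.3, 13.1, 17.5 and 15.1 CPM in the rehydrated cortex (log2 fold change 0.54, SE 0.18, adjusted p = 0.106 by edgeR). The cytosolic median was -0.18 in the cortex (24 of 30 below 0) and 0.23 in the medulla (28 of 30 above 0), the opposite signs to dehydration against control, which shares the dehydrated libraries. Without rehydrated medulla 3 the medulla value was -0.05. The mitochondrial medians were 0.09 in the cortex (0.02 without rehydrated cortex 3 to 0.18 without dehydrated cortex 4) and 0.13 in the medulla (0.05 without rehydrated medulla 3 to 0.21 without dehydrated medulla 5). Against controls, edgeR called 0 of the 108 genes in either tissue, where 0.0845% and 0.813% of all tested genes were called, a count that the choice set for the 98 (1 and 5 at an unadjusted p under 0.05). The 4 medians lay between -0.06 and 0.06 and rest on single libraries. The cytosolic median of the medulla ran from -0.25 without rehydrated medulla 3 to 0.24 without control medulla 3, and that of the cortex from -0.04 without rehydrated cortex 2 to 0.14 without rehydrated cortex 4.

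The difference of the dehydration response between the tissues was also tested. None of the 108 genes was called by edgeR, DESeq2 or limma-voom (2 at an unadjusted p under 0.05), against 0.0455% of all tested genes. The fitted difference, medulla response minus cortex response, was below 0 for 30 of 30 cytosolic ribosomal genes, with a median of -0.39, and it had a median of -0.02 for the mitochondrial ribosomal genes and -0.02 over all tested genes. Leaving out a library at a time moved the cytosolic median between -0.49 and -0.19, the latter without control medulla 3. RPL10A had -0.54 (SE 0.30) and RPS6 -0.38 (SE 0.32), and no single gene passed the test. For the rehydration response 0 of 108 were called (1 at an unadjusted p under 0.05, 0 by the other tools), with 0.00% of all tested genes called. The cytosolic median was -0.00, and it was -0.28 without rehydrated medulla 3 and 0.19 without control medulla 3.

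The 10 genes of the RNA list were chosen from these libraries, and their values across conditions are given without a test. Those past the threshold were EEF1AKMT2, EIF4ENIF1 and MRPS36 for dehydration against control and EEF1AKMT1, EEF1AKMT2 and MRPS36 for rehydration against dehydration in the cortex, and MRPL15 for the latter in the medulla, which the choice itself can set. MRPS36, named for the mitochondrial small subunit and also known as a part of the 2-oxoglutarate dehydrogenase complex (chromosome 3, 72237013 to 72249132), was lower in dehydrated camels in both tissues. It stood at 74.0, 85.8, 107, 117 and 122 CPM in the control, 68.1, 73.9, 59.4, 67.6 and 59.0 CPM in the dehydrated and 101, 101, 94.3, 102 and 76.1 CPM in the rehydrated cortex. In the medulla it stood at 61.1, 55.9, 69.6, 57.6 and 49.3 CPM in the control, 43.0, 48.5, 39.0, 39.1 and 42.2 CPM in the dehydrated and 48.9, 51.2, 62.1, 68.2 and 51.8 CPM in the rehydrated camels. The dehydrated libraries of each tissue lay below all control and all rehydrated libraries, at log2 fold changes of -0.63 and -0.47 against controls.

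MRPL15, of the mitochondrial large subunit, had log2 fold changes of -0.36 in the cortex and -0.37 in the medulla, and its medulla values were 53.5, 54.6, 60.2, 49.0 and 52.0 CPM in the control, 38.2, 42.2, 42.6, 36.5 and 49.1 CPM in the dehydrated and 48.4, 49.0, 55.6, 66.4 and 54.5 CPM in the rehydrated camels. The dehydrated and control medulla met at a single library (49.1 against 49.0 CPM). MRPL39 and MRPS5 had -0.42 and -0.36 in the dehydrated cortex, with values of -0.11 and -0.13 in the medulla.

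The factors of the RNA list went both ways. EIF4ENIF1, the protein that carries eIF4E into the nucleus and to sites of mRNA decay, stood at 46.0, 49.5, 36.4, 45.7 and 45.5 CPM in the control, 60.3, 60.8, 60.4, 75.2 and 59.3 CPM in the dehydrated and 46.9, 38.1, 49.6, 53.4 and 63.4 CPM in the rehydrated cortex, with no overlap between the first and second (1.42-fold). EEF1AKMT1 and EEF1AKMT2, both methyltransferases of eEF1A, had opposite signs in the cortex, at 0.38 and -1.11. EEF1AKMT2 stood at 29.2, 35.2, 34.3, 22.1 and 33.9 CPM in the control, 6.87, 9.00, 24.7, 17.6 and 12.9 CPM in the dehydrated and 23.3, 43.1, 45.5, 23.6 and 27.9 CPM in the rehydrated cortex. A dehydrated library reached into the control range. EIF2B4, a subunit of the exchange factor of eIF2, had 0.26 after dehydration and -0.38 after rehydration in the cortex. EEF1A2 stood at 0.765, 0.206, 1.73, 1.18 and 1.17 CPM in the control and 0.0919, 0.53, 0.171, 0.157 and 0.472 CPM in the dehydrated medulla, too low for a firm ratio.

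MRPL57 and MRPL41 are the genes of 1 exon, so their reads cannot be told from those of unspliced or genomic sequence. MRPL57 (chromosome 14, 1229185 to 1229493) stood at 0.724 to 3.29 CPM in 23 libraries and at 7.33 to 26.8 CPM in the other 7. These 7 were control cortex 3, rehydrated cortex 2, 3 and 5, and rehydrated medulla 1, 3 and 5. MRPS12, a mitochondrial small subunit gene of 2 exons, had its 7 highest values in the same libraries, at 17.2 to 40.9 CPM against 3.22 to 14.2 CPM elsewhere. EIF4EBP1 shared 5 and MRPL41 shared 4 of the 7. The rehydration values of MRPL57 (log2 fold changes of 2.46 in the cortex and 2.34 in the medulla against dehydration) and of MRPS12 (1.06 and 1.44) rest on those libraries, and what the libraries share was not tested.

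The other genes of translation and of the mitochondrion were read from lists by symbol. A symbol was at hand only where the study's lists of changed RNAs or proteins, in the parts held, named the gene. Many members had none, and those found are not a neutral sample. The 10 mitochondrial translation factors found were lower in the control medulla for 8 (median -0.68), TSFM and MTIF3 among them (-1.12, SE 0.17, and -1.20, SE 0.21), while GFM1, an elongation factor of mitochondria, was at 0.15. Lower too were 8 of 12 mitochondrial tRNA synthetases (median -0.77). Of the cytosolic tRNA synthetases 3 of 7 were lower (median -0.19), and of the ribosome biogenesis genes 2 of 10 (median -0.24), where 28.6% of all tested genes were lower. Of 5 genes that control growth and stress responses of translation, 3 were higher and 1 lower, and MTOR was at 0.02 (SE 0.12). In the dehydrated cortex LRPPRC, which stabilises mitochondrial mRNAs, was the gene called among the mitochondrial translation factors (log2 fold change -0.52, SE 0.13, adjusted p = 0.0324 by edgeR), and 0 of the mitochondrial tRNA synthetases, cytosolic tRNA synthetases and ribosome biogenesis genes were called. The respiratory chain genes had a median of -0.35 in the dehydrated cortex, with 32 of 32 below 0 and 2 called, ATP5F1C and UQCRC2, and of -0.51 in the dehydrated medulla, with 32 of 32 below 0 and 8 called, where 2.45% and 1.68% of all tested genes were called. After rehydration the medians were 0.28 in the cortex and 0.41 in the medulla against dehydrated camels, with 0 and 7 called, where 2.32% and 3.67% of all tested genes were. All these genes were named as changed in the same camels, in part from these very libraries. Their calls and shared signs across conditions can thus be set by the choice, and nothing is read from their counts against all tested genes.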

How the data were processed

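Poly(A) libraries were counted per gene by the authors, who deposited raw counts of read pairs from featureCounts 1.6.2 on the CamDro2 annotation, without multi-mapping reads or reads shared by genes. The aligner was not settled by the sources used here. Counts were TMM-scaled and fitted over 30 libraries and 6 groups in R 4.3.3 with edgeR 4.0.16 (quasi-likelihood test, at least 10 counts in enough libraries and 15 in all, prior count 2 for log2 CPM, threshold 0.05 after Benjamini-Hochberg adjustment over 15376 genes). DESeq2 1.42.0 and limma 3.58.1 (voom) were alternatives. The fit was also run on simulated data. There the genes varied independently, and the tissues had the same means but for changes set in a single group. Neither holds for the genes described here, so nothing is read from that run. The newer quasi-likelihood method of edgeR was taken after counts of calls under several settings had been seen, because it gave the counts of an earlier processing of these data.

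The genes and the lists were chosen with earlier results of these data known. The supplementary lists that name them were held in part, so further members may be missing. Genes were named by fixed rules: the ends of each family in control tissues, called genes, the RNA list, the ends of the levels, genes of 1 exon, and set pathway genes. Genes that these rules also take in but that are withheld are not reported here. EIF1AX, EIF4B, EIF4G2, MRPL2, MRPL45, MRPS12 and the named respiratory chain genes were chosen after their values were seen. EEF1A1, EEF2, TUFM, MTIF2, ATF4 and DDIT3 had no paired symbol.

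The labels give cortex and medulla of control and dehydrated camels the same animal number, and deviations of same-animal libraries correlated between -0.14 and 0.34. The numbers of rehydrated camels are doubtful, since the sample codes of the tissues differ (-0.42 to 0.41). Numbers shared between conditions do not mark an animal.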

Additional observations from a re-analysis of the deposited data

Results flagged for a closer look

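Within groups of 5, a library stood far from the other 4 in 13 of 228 checks of a gene or summary in a group (5.7%), where chance gives about 1 in 20 for independent checks. The checks are not independent, since these genes moved together, and the 13 cases fell in 6 libraries, with 9 of them in 2 libraries. Control cortex 3 was high for EIF4EBP1 (39.5 CPM), MRPL41 (106 CPM), MRPL57 (25.6 CPM) and MRPS9 (263 CPM). Rehydrated medulla 3 was high for MRPS9 (119 CPM), RPL22 (853 CPM), RPL27A (1916 CPM) and RPS16 (1038 CPM) and low for MRPL53 (16.2 CPM). The remaining cases were EIF4ENIF1 in dehydrated cortex 4 (75.2 CPM), MRPL57 in control medulla 3 (0.724 CPM), MRPS18A in control medulla 5 (13.3 CPM) and MRPS36 in rehydrated cortex 5 (76.1 CPM). The cause was not tested.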

How the results depend on the processing

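Over the counts of calls and the cytosolic and mitochondrial medians, 734 of 772 values under other settings stayed within 1.5 times the count or within 1 SD of the median. This SD was that of library medians between replicates, and it was larger than many of the medians between conditions. A count of 0 under both settings scored as unchanged. Settings that altered only the threshold or the genes kept used the same fit, so their medians were fixed or nearly so. The share thus does not mean that small medians kept their sign. The sign turned in 9 of 386 medians under other settings and in 37 of 260 without a library. With library totals alone, genes called between the tissues numbered 56 and 57 in control and rehydrated camels (52 and 53 outside the RNA list), the cytosolic medians were -0.19, -0.52 and -0.18 and the mitochondrial medians -0.49, -0.48 and -0.41 in control, dehydrated and rehydrated camels. That scaling also turned EEF1AKMT1 (0.026) in control, RPL7A (0.16) and EEF1G (0.021) in dehydrated, and RPL10A (0.0055), EEF1AKMT1 (0.20) and MRPS18B (0.092) in rehydrated camels. Upper-quartile factors gave a mitochondrial median of -0.85 in dehydrated camels and 1 call in the medulla for dehydration against control. DESeq2 called 6, 7, 3, 1 and 4 genes (cortex dehydration against control and rehydration against dehydration, then, in the medulla, dehydrated against control, rehydrated against control, and rehydrated against dehydrated camels), against 3, 3, 0, 0 and 1 by edgeR, with 1 and 2 outside the RNA list after rehydration in cortex and medulla. For dehydration against control in the cortex, rehydration against dehydration in the cortex and the same in the medulla, libraries of the tissue alone gave 1, 0 and 2 calls (1 outside the RNA list, in the medulla), an adjusted p under 0.01 gave 1, 0 and 0, and leaving out all genes of the RNA list gave 0, 0 and 0. Leaving out genes named only through that list gave 0 and 0 in the cortex. For rehydration against dehydration, the compared groups alone gave 0 and 0, and no filter or the older edgeR method gave 0 in the medulla. The cause was not tested.

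The replicate block by animal gave 86, 95 and 88 calls between the tissues and 0 for both interactions. The 88 and the rehydration interaction pair rehydrated tissues by numbers that the sample codes do not bear out. Blocking on the number within a tissue, which does not pair these samples (median correlation 0.01 in the cortex and 0.09 in the medulla), gave 1, 1 and 0 calls in the comparisons where edgeR gave 3, 3 and 1. Leaving out a library at a time gave 1 to 3 calls in both cortex comparisons, 0 to 1 in the medulla for dehydration or rehydration against control, and 0 to 3 for rehydration against dehydration (0 to 1 outside the RNA list, MRPS12, without dehydrated medulla 5 or rehydrated medulla 2 or 4). Over all tested genes, the older edgeR method called 6, 149, 34 and 306 genes where the newer one called 13, 259, 125 and 565 (cortex rehydration against control and the 3 medulla comparisons in the order above), and DESeq2 called 706, 124, 718, 394, 269, 860 and 57 (those 3 comparisons in the cortex, then in the medulla, and the dehydration interaction), against 376, 13, 356, 259, 125, 565 and 7. Further genes of the families could not be added because the reference symbols were not paired with these identifiers, so that alternative was not run. The older and robust edgeR methods and the fits without all RNA-list or overlapping genes were chosen after seeing the data. Depth limits the lowest genes, EEF1A2 and MRPL57 above all.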
